A study of Mus musculus with 2 samples.

Results

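The genes that copy DNA in S phase were examined in mouse embryonic stem (ES) cells that live on Baf53a or on its neuronal homologue Baf53b. The set was 43 genes, chosen by name: the subunits of the origin recognition complex, the licensing factors, the MCM helicase and its activators, the replicative polymerases, the sliding clamp and its loader, replication protein A, the enzymes that finish the lagging strand, the enzymes that supply deoxynucleotides, and the cyclins E and E2f1. All 43 had a named probe, out of 20823 genes with one, and 42 were measured in both conditions. The rule names genes by function and uses no value of these arrays, although earlier results of these data were known when the set was proposed.

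Both conditions used the same E14-derived Baf53a cKO ES cells, a line that is 1 clone. In these cells both Baf53a alleles were disrupted by CRISPR/Cas9, and a CRISPR-resistant Baf53a cDNA under control of tetracycline (Tet) kept them alive until Tet was added. The Baf53a-expressing group received a vector for Myc-tagged Baf53a and the Baf53b-expressing group the same vector with Baf53b. From 48 h after transfection both were kept in 1 μg/mL Tet for 6 days, in serum and LIF, and RNA of each was hybridised to 1 array. The values therefore carry no replicate error between cultures, no test was possible, and no p-value is given.

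The targeted genes were read first. Actl6b, the gene of Baf53b, was detected in Baf53b-expressing cells only, at -3.24 on the log2 scale defined below. This is 14.5-fold above the lowest level of any probe flagged well above background on the other array. That lowest level is not a detection limit of the Actl6b probe. Actl6a, the gene of Baf53a, stood at 1.71 in Baf53a- and 1.67 in Baf53b-expressing cells, a difference of -0.04 inside the SD between spots of 0.0590 that is explained below, so its probe did not tell the groups apart. These probes were not placed relative to the coding regions of the vectors. All 6 ES cell markers examined, among them Pou5f1, Nanog and Esrrb, were well above background on both arrays, with a median difference of -0.09. Of these, 5 were lower and Sox2 was higher, by 0.07. In the brightest group of genes, defined below, 5 of the 6 lay, and of all genes there 77.4% were lower, with a median of -0.06. All 5 primitive endoderm markers (Gata4, Gata6, Sox17, Dab2 and Foxa2) were also detected on both arrays and were 0.21 to 0.40 higher in Baf53b-expressing cells. Their summed signal was 2.41 and 2.90 times the 75th percentile. Each of the 5 exceeded its SD between spots, where 54.1% of all genes did in either direction. Of all genes 49.1% were higher. In the brightness groups where these markers lay, from dim to bright, 61.9%, 55.1% and 42.4% were higher, with medians of 0.05, 0.02 and -0.02. Of the fibroblast markers 4 of 5 were measured, with a median difference of 0.08 and summed signals of 1.34 and 1.30, and Col3a1 was detected in Baf53b-expressing cells only. All 5 neuron markers were measured, 4 higher and 1 lower, where 49.1% of all genes were higher. Their median difference was 0.11 and their summed signals were 17.8 and 19.8. The 2 brightest of them, which made up most of the sums, went apart, Snap25 by 0.35 and Tubb3 by -0.15. The median was that of Map2, a dim gene at -5.80 in Baf53a-expressing cells. None of these marker lists had every gene at background, and the part of other cell types in the values below was not tested.

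DNA replication starts when the origin recognition complex marks an origin and, with Cdc6 and Cdt1, loads the ring of Mcm2 to Mcm7 in G1. At the entry into S phase, cyclin-dependent kinase and the Cdc7-Dbf4 kinase turn this licensed ring into a moving helicase with Cdc45 and the GINS complex, and polymerases, clamp and ligase then copy both strands. ES cells have a short G1 and spend a large part of their cycle in S phase, and many of these genes are transcribed under the control of E2F factors.

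Throughout, a level is the log2 processed signal of a gene's probes with the 75th percentile of the array set to 0, and a difference is Baf53b-expressing minus Baf53a-expressing cells. Levels of different genes come from different probes and were not set against each other. The 48 detected probes of the 42 genes had 1 spot each, so the error of a difference was taken from 324 other probes with at least 5 usable spots on each array. Probes were split by brightness into 5 groups of equal number. The SD of a difference between single spots was 0.0590 in the brightest group, where 28 of the 42 genes lay, and 0.274 in the dimmest. This is the noise between spots only, without that of culture, labelling or hybridisation. The scanner software itself gave these spots an error of up to 12.3% of their signal, which is 0.20 on the log2 scale for a typical difference, and 1 of the 48 probes, for Ccne1, differed by more than its own value of this error.

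None of the 42 genes differed by 2-fold (0 of 42), where 0.193% of the 16608 genes measured did. Their differences ran from -0.20 for Pold1 to 0.18 for Ccne1, and 41 of them lay within 0.2 on the log2 scale. The median was -0.04, against -0.003 over all genes measured. In Baf53b-expressing cells 29 of the 42 genes (69.0%) were lower and 13 higher, where 50.9% of all genes were lower. The differences of all genes drifted with brightness, however, with medians of 0.09, 0.05, 0.02, -0.02 and -0.06 from dim to bright, and in the brightest group 77.4% of all genes were lower. Of the 28 replication genes in that group, 23 (82.1%) were lower, with a median of -0.05, and of the 14 dimmer ones 6 (42.9%) were lower, with a median of 0.006. The share of lower replication genes thus lay near that of other bright genes. Counted from the median of all genes of like brightness, a reference chosen after seeing the data, 19 of the 42 were lower and the median was 0.01. In bulk RNA, fewer cells in S phase and less RNA of these genes per cell cannot be told apart.

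**Figure D1:**
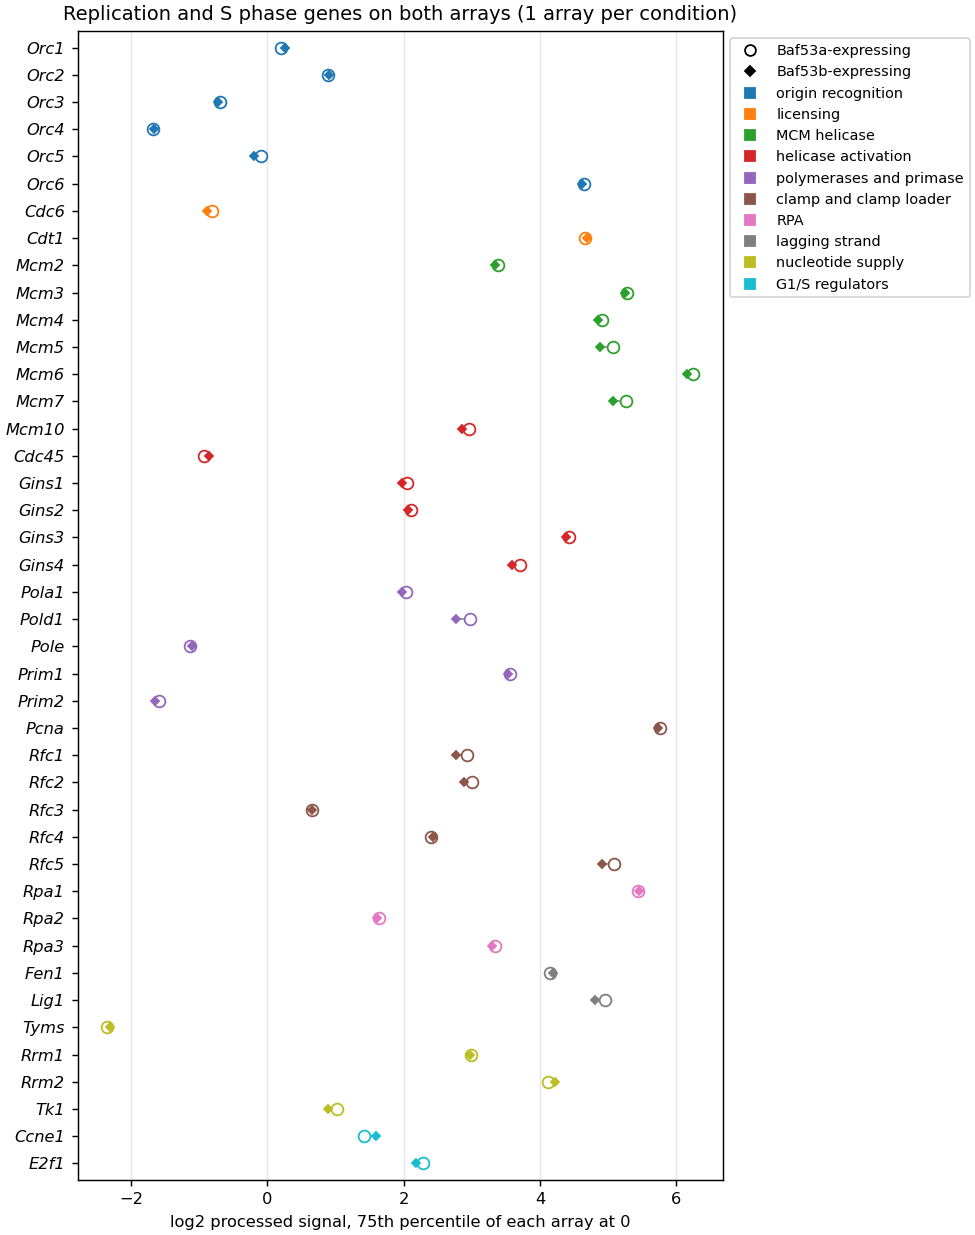
Level of each of the 42 replication and S phase genes measured (log2 processed signal, 75th percentile of each array at 0) in Baf53a-expressing cells (open circles) and Baf53b-expressing cells (filled diamonds), 1 array per condition, coloured by role. In most rows the 2 symbols overlap or touch, and the widest gap is 0.20, that of Pold1.

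**Figure D2:**
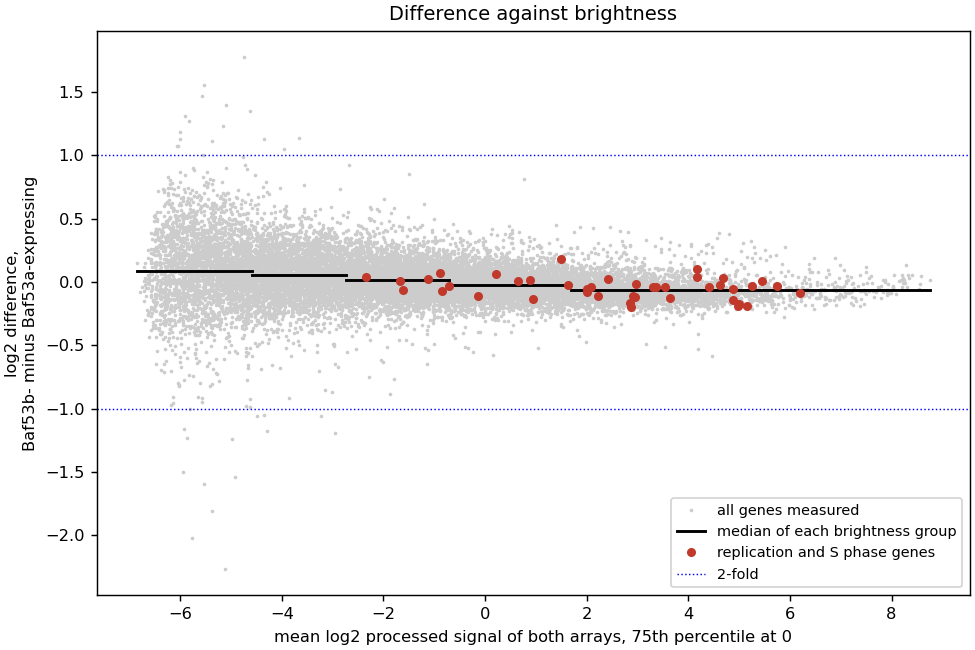
Log2 difference of every gene measured (grey) against its mean level on both arrays, with the 42 replication and S phase genes in red, the median of each brightness group as black bars and 2-fold as dotted lines. The bars fall from 0.09 on the left to -0.06 on the right. The red points lie only in the brighter groups, with bars from 0.02 to -0.06, and on both sides of them.

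A difference larger than the SD between spots was found in 17 of the 42 genes (40.5%), 15 lower and 2 higher, where 54.1% of all genes exceeded it in either direction and 28.2% were lower by more than it. Among the 28 genes in the brightest group 12 were lower by more than this SD, where 55.2% of all genes of that group were. The genes therefore stood out from the noise between spots no more often than others. In 12 genes the difference exceeded this SD, with the same sign, in each of the 9 alternative settings that kept the filter on dim probes. That is 28.6% of the 42, where 33.5% of the 13348 genes with a value in every setting passed the same rule, and 9 of the 28 in the brightest group (32.1%), where 35.7% of that group did. Of the 12, 10 were lower (Cdc6, Mcm5, Mcm7, Gins4, Pold1, Rfc1, Rfc5, Lig1, Tk1 and E2f1) and 2 were higher (Rrm2 and Ccne1) in Baf53b-expressing cells. They came from every role except origin recognition and replication protein A. Several of the 9 settings could hardly move these genes. A weaker detection flag, kept outlier spots and the deposited table left them almost unchanged, and a stricter filter changed only Pole. The brightest probe could alter only the 6 genes with 2 probes. The count thus rests mainly on quantile normalization, cyclic loess, normexp and median centring. Of the 25 genes inside this SD, 11 were inside it in each of the 9 settings as well, so that below, inside or beyond the SD refers to scaling by the 75th percentile unless another setting is named.

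**Figure D3:**
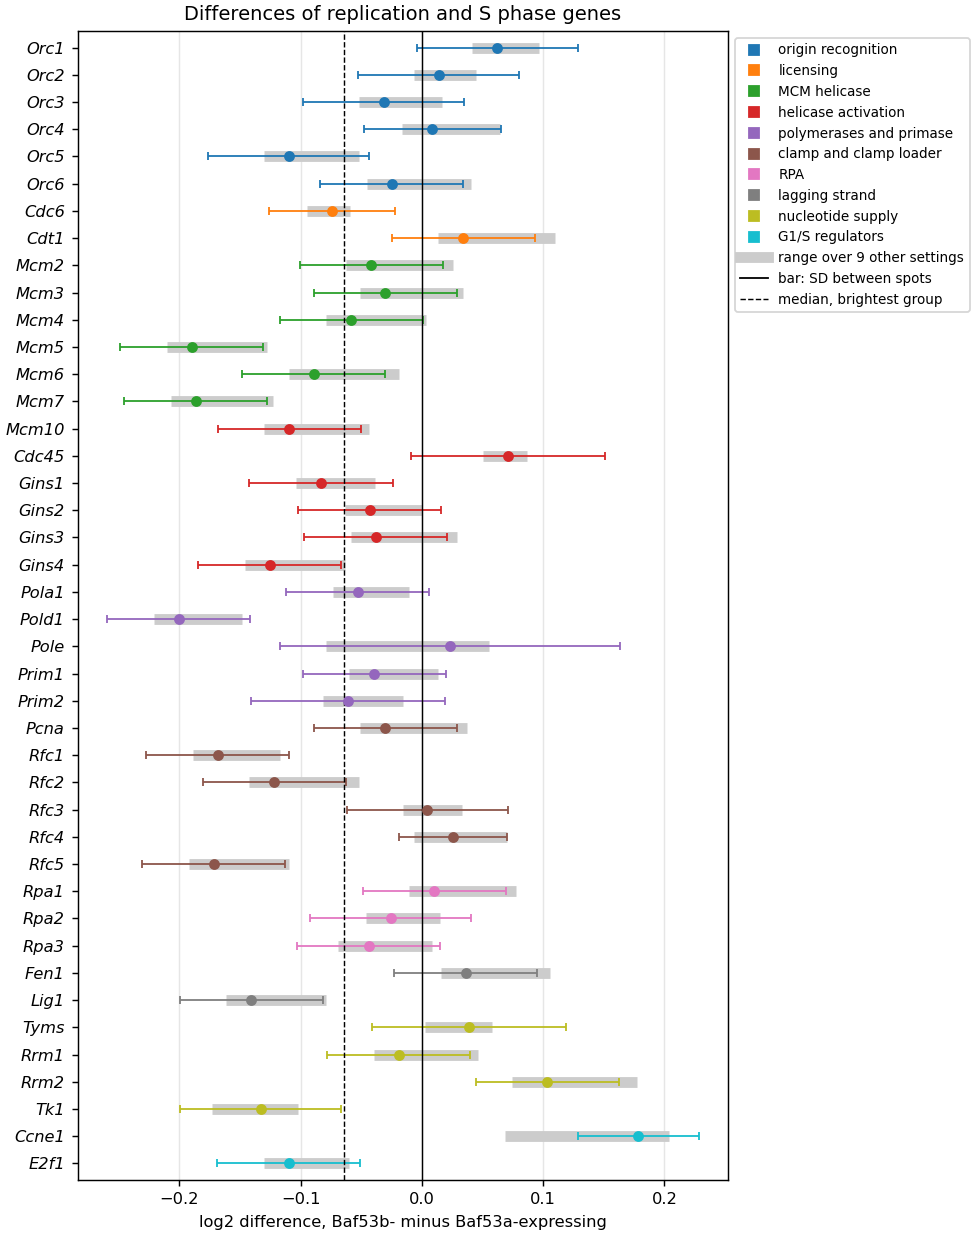
Log2 difference of each of the 42 genes, Baf53b-expressing minus Baf53a-expressing cells, with the SD between spots as error bars, the range over 9 alternative settings as grey bands and the median of the brightest group of all genes (-0.06) as a dashed line. Points lie from -0.20 to 0.18, on both sides of the dashed line in most roles.

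The promoters of the genes were read for the sites through which E2F factors are known to act on S phase genes. RefSeq promoter windows (GRCm38.p6, 250 bases before to 50 after each start) were found for 35 of the 43 genes. The octamers TTTCCCGC, TTTCGCGC, TTTGCCGC and TTTGGCGC were searched on both strands, and TTTCGCGC on one strand can overlap TTTGGCGC on the other. At least 1 of them stood in the window of 13 of the 35 genes (37.1%), where 2.60% of 27025 genes had one. The CCAAT box, searched the same way, stood in 22 of the 35 genes (62.9%), where 41.1% of all genes had one. A match is a string of letters and not a measured binding site. The 9 genes with an octamer before the start are shown, in the direction of the gene, because the set held 3 of these strings more often than promoters at large did. TTTCCCGC stood in 20.0% of the 35 genes against 1.24% of all genes, TTTCGCGC in 17.1% against 0.374% and TTTGGCGC in 14.3% against 0.585%, while TTTGCCGC stood in 0 of the 35 and in 0.507% of all genes. Capitals mark the octamers.
Orc1 (chr4:108579413-108579448, + strand): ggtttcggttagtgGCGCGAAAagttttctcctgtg
Orc3 (chr4:34614962-34614997, - strand): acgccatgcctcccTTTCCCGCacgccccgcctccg
Cdc6 (chr11:98907999-98908034, + strand): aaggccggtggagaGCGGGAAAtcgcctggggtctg
Mcm5 (chr8:75109342-75109381, + strand): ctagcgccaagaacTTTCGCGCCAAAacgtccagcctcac
Mcm6 (chr1:128359731-128359829, - strand): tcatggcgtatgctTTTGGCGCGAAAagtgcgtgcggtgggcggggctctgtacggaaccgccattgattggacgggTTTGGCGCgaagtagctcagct
Mcm7 (chr5:138172027-138172062, - strand): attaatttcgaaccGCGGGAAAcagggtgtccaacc
Gins3 (chr8:95633504-95633539, + strand): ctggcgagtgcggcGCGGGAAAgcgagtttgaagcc
Pola1 (chrX:93632272-93632307, - strand): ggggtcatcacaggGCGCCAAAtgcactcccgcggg
Rfc3 (chr5:151651209-151651232, - strand): gtgacgtcgcacgcTTTCGCGCtc

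In Mcm5 and Mcm6, TTTCGCGC and TTTGGCGC overlap on opposite strands, and Mcm6 has a further TTTGGCGC from base -47 to -40. Cdt1, Lig1, Mcm3 and Pold1 had an octamer after the start only. The 13 genes with an octamer had a median difference of -0.05, with 10 lower, and the other 22 with a window had -0.03, with 13 lower. Their ranges, -0.20 to 0.06 and -0.17 to 0.18, overlapped over most of their length. Of all genes measured 50.9% were lower, and of the brightest group, where most of the 13 lay, 77.4%. Whether the octamers bear on the differences was not tested.

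The origin recognition complex, the ATPase that marks origins, differed little. Orc1, the largest subunit, stood at 0.19 in Baf53a- and 0.26 in Baf53b-expressing cells, a difference of 0.06. Orc5 stood at -0.09 and -0.20, a difference of -0.11, and of the 6 subunits it alone exceeded its SD between spots, 0.0664. Orc2, Orc3, Orc4 and Orc6 lay between -0.03 and 0.01. Orc3 and Orc4 had 2 probes each, which gave -0.06 and -0.005 for Orc3, and -0.00052 and 0.02 for Orc4. In all, 3 of the 6 subunits were lower and 3 higher, where 50.9% of all genes were lower. Which subunits exceeded the SD depended on the setting. Orc1 was beyond its SD with quantile normalization, cyclic loess and normexp, at 0.07, 0.08 and 0.10. With normexp Orc4 was beyond its SD too, at 0.06, and Orc5 was inside, at -0.05.

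The licensing factors, which bring the MCM ring to the origin, went apart. Cdc6 stood at -0.81 and -0.88, a difference of -0.07 against an SD between spots of 0.0520, and its 2 probes gave -0.07 and -0.08. Cdt1 stood at 4.66 and 4.69, a difference of 0.03, inside its SD of 0.0590, but with quantile normalization and cyclic loess it was at 0.11 and 0.09, beyond it.

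The MCM helicase subunits, which form the ring that unwinds DNA, were all lower, 6 of 6, with a median of -0.07. All 6 lay in the brightest group, where 77.4% of all genes were lower and their median was -0.06. Mcm5 stood at 5.07 in Baf53a- and 4.88 in Baf53b-expressing cells, a difference of -0.19. Mcm7 stood at 5.26 and 5.07, also a difference of -0.19. These are 0.877-fold and 0.879-fold. Mcm6 stood at 6.25 and 6.16, a difference of -0.09 that was -0.03 and -0.02, inside its SD, with quantile normalization and cyclic loess. Mcm2, Mcm3 and Mcm4 differed by -0.04, -0.03 and -0.06, each inside its SD between spots. Within the ring the differences thus ran from -0.19 to -0.03. With cyclic loess or quantile normalization, which level the drift with brightness, 3 of the 6 were lower and the median was -0.01.

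The helicase activators are loaded onto the ring as S phase begins. The GINS subunits Gins1 to Gins4 were all lower, at -0.08, -0.04, -0.04 and -0.13, in the brightest group, where 77.4% of all genes were lower. With quantile normalization and cyclic loess Gins3 was higher, at 0.03 and 0.02, and Gins2 was at -0.00088 and -0.00025. Gins4, the largest of these, stood at 3.71 in Baf53a- and 3.58 in Baf53b-expressing cells. Mcm10, which helps to switch on the helicase, stood at 2.96 and 2.85, a difference of -0.11. Cdc45, the partner of GINS on the ring, went the other way, from -0.93 to -0.86, a difference of 0.07 that is inside its SD between spots of 0.0799.

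Of the polymerases and primase, 4 of 5 genes were lower, and 3 of the 5 lay in the brightest group, where 77.4% of all genes were lower. With quantile normalization and cyclic loess 3 of 5 were lower, and Prim1 was higher, at 0.009 and 0.01. Pold1, the catalytic subunit of polymerase delta, which copies the lagging strand, stood at 2.97 in Baf53a- and 2.77 in Baf53b-expressing cells. Its difference of -0.20, or 0.870-fold, was the lowest of all 42 genes and 6.79% of all genes measured were as low or lower. Pole, the catalytic subunit of polymerase epsilon for the leading strand, had 2 probes that went apart, -0.08 from the bright probe and 0.12 from a probe in the dimmest group, where the SD between spots is 0.274. Pola1, Prim1 and Prim2, which lay down the primers, differed by -0.05, -0.04 and -0.06, each inside its SD.

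The clamp itself hardly differed. Pcna, the ring that holds the polymerases on DNA and a common marker of proliferation, stood at 5.75 in Baf53a- and 5.72 in Baf53b-expressing cells, a difference of -0.03 with an SD between spots of 0.0590. Its loader was uneven. Rfc1, Rfc2 and Rfc5 were lower by more than their SD, at -0.17, -0.12 and -0.17, but Rfc2 was at -0.05 with quantile normalization, inside its SD. Rfc5 stood at 5.08 and 4.91, and Rfc1 at 2.93 and 2.77. Rfc3 and Rfc4 differed by 0.005 and 0.03, and the 2 probes of Rfc4 gave 0.06 and -0.006. With cyclic loess Rfc1 and Rfc5 were at -0.12 and -0.11.

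Replication protein A, which coats single-stranded DNA, showed the smallest spread of the roles with over 2 genes. Rpa1 stood at 5.44 and 5.45, Rpa2 at 1.64 and 1.61, and Rpa3 at 3.33 and 3.29. The differences, 0.01, -0.03 and -0.04, were all inside the SD between spots. Rpa1 was beyond it, at 0.08, with quantile normalization and cyclic loess, and Rpa3 was beyond it, at -0.07 and -0.06, with normexp background correction and median centring. On the lagging strand, Fen1, the flap nuclease, stood at 4.15 and 4.19, a difference of 0.04 that was 0.11 and 0.09 with quantile normalization and cyclic loess. Lig1, the ligase that seals the fragments, stood at 4.95 and 4.81, a difference of -0.14 that exceeded its SD of 0.0590.

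The nucleotide supply genes split, with 2 lower and 2 higher, where 50.9% of all genes were lower. With quantile normalization and cyclic loess 1 of the 4 was lower. Rrm2, the S phase subunit of ribonucleotide reductase, stood at 4.11 in Baf53a- and 4.22 in Baf53b-expressing cells, a difference of 0.10 against an SD between spots of 0.0590. Rrm1, the large subunit of the same enzyme, differed by -0.02, inside its SD, and by 0.05 and 0.03 with quantile normalization and cyclic loess. Tk1, the thymidine kinase of the salvage pathway, stood at 1.02 and 0.88, a difference of -0.13. Tyms, which makes thymidylate anew, stood at -2.35 and -2.31, a difference of 0.04 inside its SD of 0.0799.

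Among the G1/S regulators, Ccne1, the cyclin E that drives entry into S phase, had the highest difference of the set, 0.18, or 1.13-fold. It rests on 2 probes that differed. The bright probe stood at 3.91 and 3.97, a difference of 0.07, and the dimmer one at -1.08 and -0.79, a difference of 0.29. With the brightest probe alone Ccne1 was at 0.07, which is less than the 0.10 of Rrm2. E2f1, the transcription factor of S phase genes, stood at 2.28 in Baf53a- and 2.17 in Baf53b-expressing cells, a difference of -0.11. Ccne2, the second cyclin E, had 1 probe, with a processed signal of 8.28 and 2.05, which was not well above background on either array, so no fold is given. Without the filter on dim probes it was the 1 gene of 43 that was over 2-fold apart, where 2.53% of all 20823 genes were.

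The rest of the replication machinery was read through a list of 61 names, of which 60 were measured. And1, an older name of Wdhd1, which is on the list too, matched no probe. Of the 60, 41 (68.3%) were lower and 19 higher in Baf53b-expressing cells, with a median of -0.05, where 50.9% of all genes were lower. At 2-fold stood 0 of the 60, where 0.193% of all genes did. Counted from genes of like brightness, 33 of the 60 were lower and the median was -0.01. The lowest were Rnaseh2c, a subunit of the nuclease that removes ribonucleotides (-0.24), E2f3, an activating E2F (-0.21), and Timeless, of the fork protection complex (-0.15). The highest were Mcm9 (0.27), a relative of the MCM subunits that acts in repair, Rbl2 (0.27), a pocket protein of the retinoblastoma family, and Dna2 (0.22), a nuclease and helicase. These 3 lay in the dimmest group but 1, where the SD of a difference between single spots was 0.119. Cdkn1a, the p53 target p21 that halts the cycle before S phase, stood at -0.95 and -0.98, a difference of -0.03 inside its SD between spots of 0.0603.

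**Figure D4:**
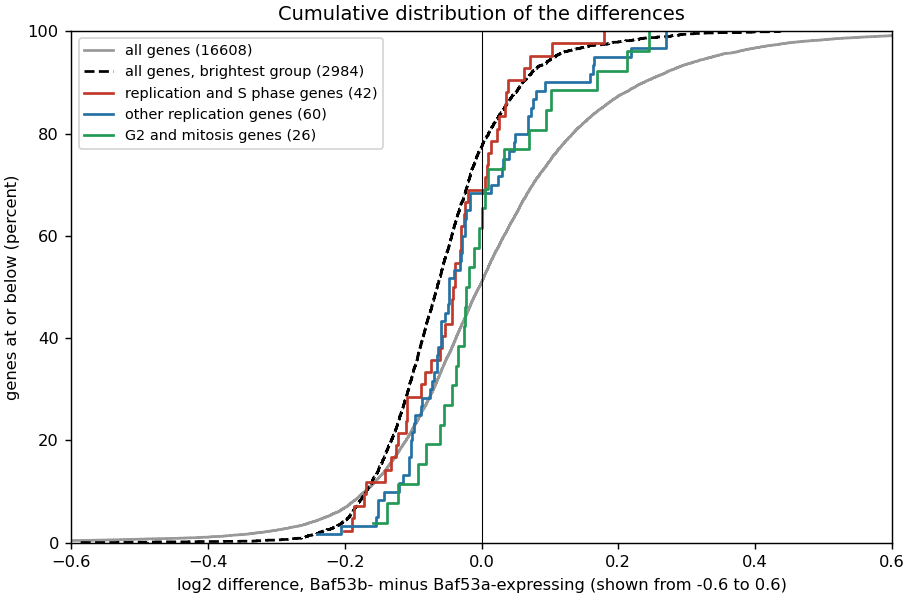
Share of genes at or below each log2 difference (percent), for all genes, the brightest group of all genes, the 42 replication and S phase genes, the 60 other replication genes and 26 genes of G2 and mitosis. The curves of the 3 cell cycle lists lie between -0.24 and 0.27, while that of all genes is wider.

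The sign of the common shift depended on the scaling. With the 75th percentile set to 0 the median of the 42 genes was -0.04, and with cyclic loess and quantile normalization it was 0.002 in each, with 20 of 42 lower. The brightest group of all genes moved alike, from -0.06 to -0.01 in both. With cyclic loess 11 of the 42 genes had the opposite sign, while Pold1 was at -0.15 and Rrm2 at 0.16.

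**Figure D5:**
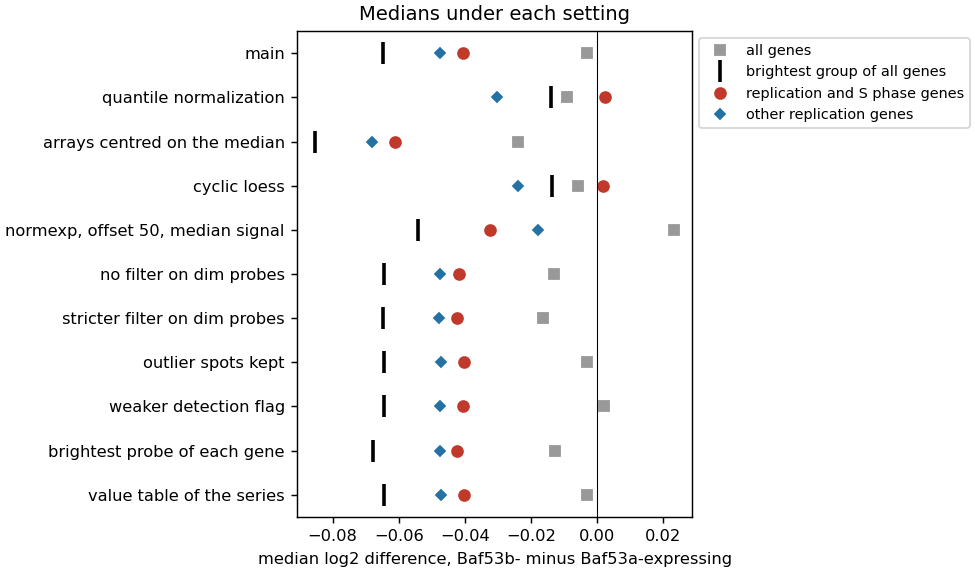
Median log2 difference under the main setting and each of the 10 alternatives, for all genes measured (squares), the genes of the brightest group (bars), the replication and S phase genes (circles) and the other replication genes (diamonds). The circles lie to the right of the bars in every setting, at 0.002 with cyclic loess and quantile normalization and from -0.06 to -0.03 elsewhere.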

How the data were processed

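Cy3-labelled cRNA of 1 culture per condition was hybridised to 1-colour whole mouse genome arrays, and the authors extracted the images with Feature Extraction 11.0.1.1. The deposited intensity of each spot was background-subtracted and spatially detrended, not normalized between arrays. A further table deposited by the authors held a ratio per probe. All 30479 values compared per array equalled the processed signal divided by 1 number per array within 0.1%, a scaling that is not given in the sources used here.

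Control and outlier spots (173 and 143) were left out, log2 intensities were averaged per probe, and each array was set to 0 at its 75th percentile (signals of 1161 and 1128). No spot was saturated (0). A probe counted as measured when at least 50% of its spots were flagged well above background on both arrays; the lowest such signals were 8.45 and 9.75. Probes were named through RefSeq accessions (GRCm38.p6, names only; the design is on mm9), and a gene is the mean of its measured probes. All members, the 3 largest differences per direction in the lists of other replication and of mitotic genes, and Cdkn1a and Mki67 were named. Members and lists were chosen with earlier results of these data known. Alternatives were quantile normalization, median centring, cyclic loess, normexp (offset 50, on the median signal, since no mean signal was used here), no filter, a stricter filter, outlier spots kept, a weaker flag, the brightest probe per gene and the deposited table. Python 3.11.15, numpy 2.4.6, pandas 2.3.3, matplotlib 3.10.9, R 4.3.3 and limma 3.58.1 were used, and the steps were tested on simulated data.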

Additional observations from a re-analysis of the deposited data

How the results depend on the processing

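With 1 array per condition the number of arrays limits every value, and the errors given are those of spots only. No paired analysis was possible because each condition had a lone array. No array could be left out, and both were on the same slide. The median of the 42 genes lay between -0.06 and 0.002 over the 10 alternatives, so its sign depended on the scaling, and the number of lower genes between 20 and 33. Counted from genes of like brightness, a choice made after seeing the data, 19 were lower. Without the filter on dim probes 1 of 43 genes, Ccne2, was over 2-fold apart, on a probe not well above background, where 2.53% of all genes were. Of the 42 genes, 12 moved by more than their SD between spots with quantile normalization and 11 with cyclic loess. With the brightest probe 1 (Ccne1) moved, with normexp 1 (Mcm2), and in the other settings 0. Of those other settings, median centring shifted all genes alike, and the rest could hardly change a member's value. The sign was kept in 25 of 42 over the 9 alternatives with a filter.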

Other observations

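The genes of G2 and mitosis, which act after replication, were read as a further list. All 26 of a list of mitotic kinases, cyclins, motors and checkpoint proteins were measured. In Baf53b-expressing cells 16 (61.5%) were lower and 10 higher, where 50.9% of all genes were lower, and the median difference was -0.02. Counted from genes of like brightness 9 of the 26 were lower, with a median of 0.03, and with quantile normalization and cyclic loess the median was 0.01 and 0.02. None reached 2-fold (0 of 26), where 0.193% of all genes did. The lowest were Plk1 (-0.16), Cdk1 (-0.14) and Bub1 (-0.12), kinases of mitotic entry and the spindle checkpoint. The highest were Aurkb (0.24), Cenpf (0.21) and Cenpe (0.17), and Aurkb lay in the dimmest group with an SD between spots of 0.274. Mki67, the gene of the proliferation marker Ki67, stood at 2.94 in Baf53a- and 2.97 in Baf53b-expressing cells, a difference of 0.03 inside its SD between spots of 0.0417.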
